A study of Mus musculus with 4 samples.

Results

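A set of 10 genes that mark the endothelial cells lining blood vessels was followed in mouse tendon: Pecam1, Cdh5, Kdr, Flt1, Emcn, Tek, Tie1, Vwf, Eng and Cldn5. They were taken by gene symbol from the array's annotation, using probe sets (the groups of probes that together measure a transcript) with exactly 1 symbol. All 10 were found, each with 1 probe set, among 22180 genes and 23521 probe sets of that kind. The tissue was the hindlimb plantarflexor tendons, Achilles and plantaris combined for each animal, from untreated wild-type C57Bl/6 mice aged 4 months. Samples of RNA, 2 labelled male and 2 female, were hybridised to a Mouse Gene ST 2.1 strip, and male 1, male 2, female 1 and female 2 name the 4 arrays. The labels call the material tenocytes, but whole tendons were homogenised, so that RNA of vessels, blood, fat and adjoining muscle could enter. The labels give 3 RNA wells per sample and do not state whether the 2 samples of a sex came from different animals; p-values therefore reflect the scatter among the arrays and no more, and that scatter may be technical.

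Endothelial cells form the inner wall of every vessel. They sense vascular endothelial growth factors through the receptor tyrosine kinases Kdr and Flt1, and angiopoietins through Tek, whose relative Tie1 tunes that signal. Neighbouring cells are held together by VE-cadherin (Cdh5), PECAM-1 (Pecam1) and claudin-5 (Cldn5), while endomucin (Emcn) coats the surface of capillaries and veins, endoglin (Eng) is a co-receptor for TGF-beta family ligands, and von Willebrand factor (Vwf) is stored for release in clotting. Tendon is sparsely vascularised, with vessels running mainly in the sheaths between its fascicles.

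Sequence before the transcription start is shown for the 3 genes with the widest spread over arrays (Emcn, Flt1, Eng) and for the 2 that ran the other way (Tie1, Cldn5), so that the promoters of both kinds can be compared. Each line gives 250 bases before the start, from RefSeq on GRCm38.p6, 5′ to 3′ on the strand of the gene. Capitals mark GGAAG or its reverse complement CTTCC, a string found in many binding sites of ETS factors, a family that includes the endothelial regulators Erg and Fli1. The shorter GGAA shared by ETS sites was not counted.
Emcn, chr3:137340828-137341077, plus strand: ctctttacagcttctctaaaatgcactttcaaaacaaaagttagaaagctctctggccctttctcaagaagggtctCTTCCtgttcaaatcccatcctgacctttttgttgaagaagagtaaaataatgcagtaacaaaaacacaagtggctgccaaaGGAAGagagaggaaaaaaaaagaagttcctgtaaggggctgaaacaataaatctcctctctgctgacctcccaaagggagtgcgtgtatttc
Flt1, chr5:147726012-147726261, minus strand: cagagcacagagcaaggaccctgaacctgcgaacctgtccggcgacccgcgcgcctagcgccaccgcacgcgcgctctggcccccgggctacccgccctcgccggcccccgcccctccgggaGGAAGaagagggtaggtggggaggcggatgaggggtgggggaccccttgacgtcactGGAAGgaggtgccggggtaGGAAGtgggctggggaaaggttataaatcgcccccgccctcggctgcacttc
Eng, chr2:32646345-32646594, plus strand: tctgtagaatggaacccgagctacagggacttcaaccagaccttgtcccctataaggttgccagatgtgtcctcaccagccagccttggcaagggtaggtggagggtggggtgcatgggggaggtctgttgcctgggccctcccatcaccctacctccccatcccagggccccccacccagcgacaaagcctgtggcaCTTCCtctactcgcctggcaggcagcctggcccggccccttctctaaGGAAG
Tie1, chr4:118489850-118490099, minus strand: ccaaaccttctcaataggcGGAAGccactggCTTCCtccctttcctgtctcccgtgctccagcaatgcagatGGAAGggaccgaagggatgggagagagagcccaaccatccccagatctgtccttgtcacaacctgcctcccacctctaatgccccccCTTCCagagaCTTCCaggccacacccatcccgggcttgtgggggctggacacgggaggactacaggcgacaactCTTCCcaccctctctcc
Cldn5, chr16:18776597-18776846, plus strand: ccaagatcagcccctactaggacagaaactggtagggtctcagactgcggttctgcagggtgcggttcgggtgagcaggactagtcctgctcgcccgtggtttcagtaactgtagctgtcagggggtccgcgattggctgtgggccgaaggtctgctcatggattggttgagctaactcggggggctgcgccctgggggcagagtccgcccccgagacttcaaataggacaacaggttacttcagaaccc

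The motif GGAAG occurred 2 times before Emcn, 3 times before Flt1, 2 times before Eng and 6 times before Tie1, and 0 times before Cldn5. RefSeq windows were matched for 7 of the 10 genes; the windows of Kdr (1 match) and Tek (0 matches) were counted as well, so that 5 of 7 held the motif. Among all 32851 windows of that length, 64.1% held it, searching both strands. TATAAA was found before Flt1 alone among the 7, with no overlap with GGAAG, against 12.4% of all windows, and AGATAA in 0 of 7 against 9.99% of all windows. The GC content of the 7 windows ran from 40.8% (Emcn) to 70.4% (Flt1), beside a median of 52.4% over all windows. A match describes letters in the window and not a bound site.

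Values are log2 RMA values, where a step of 1 is a 2-fold change of signal. As a level reached by genes with little transcript in tendon, the 95th percentile of 1405 olfactory and vomeronasal receptor probe sets was taken on each array, called the receptor level below; it lay between 2.73 (female 2) and 2.90 (male 1), with array medians of 2.27 to 2.30. It was exceeded by 36.3% to 41.8% of probe sets per array. Male 1 stood somewhat apart: across all probe sets its correlation with the other arrays was 0.9461 to 0.9541, against 0.9595 to 0.97 among the other 3. Of 11 tendon cell markers 10 had a mean above the receptor level, with Dcn, a collagen-binding proteoglycan, at 10.12 to 10.60 and Tnmd, tenomodulin, at 4.39 to 5.06; Mkx, a tendon transcription factor, was at 2.26 to 3.09. All 10 endothelial markers had a mean above the receptor level, which 39.5% of all probe sets reached, and 7 exceeded it on every array (31.4% of all probe sets did). Emcn, Kdr and Vwf fell under it in male 1 alone. Of 24 other surface and secreted genes of endothelium, 22 had a mean above the receptor level as well.

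**Figure D1:**
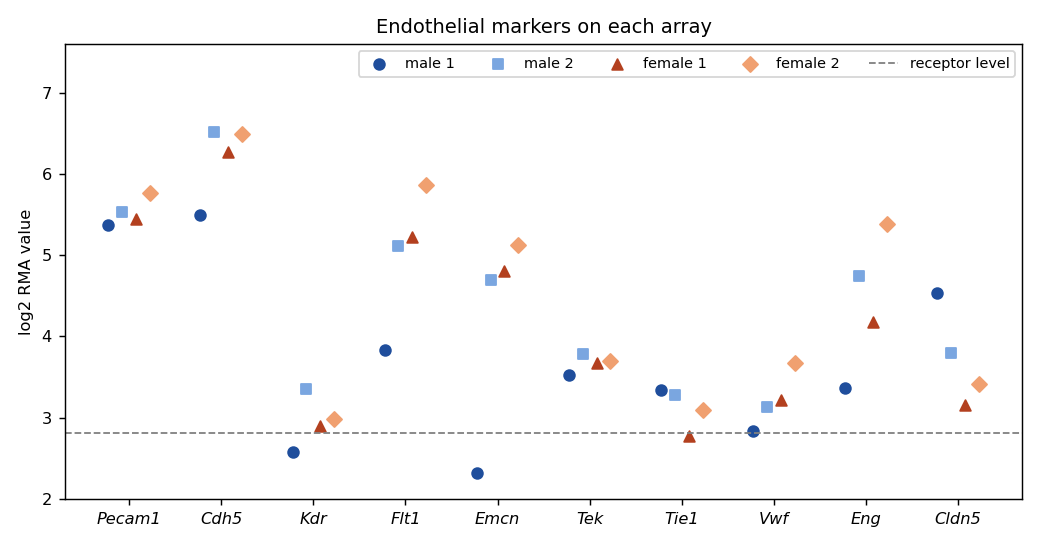
Log2 RMA value of the 10 endothelial markers on each of the 4 arrays; each point is 1 array, and the dashed line is the receptor level averaged over arrays (2.81). Male 1 is the lowest point for 8 of the 10 genes and the highest for Tie1 and Cldn5. Levels of different genes come from different probes and are not to be ranked.

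For 7 of the 10 markers the gap between 2 arrays of one sex was wider than the difference between the sex means, as it was for 80.8% of all probe sets above the receptor level. In male 1, 8 of 10 had their lowest value, and the other 2, Tie1 and Cldn5, were highest there. Among all probe sets above the receptor level, 34.0% were lowest and 22.6% highest in male 1. Male 2 lay above male 1 for 8 of the 10 markers, with a median step of 0.53, where probe sets above the receptor level had a median step of 0.05. Female 2 lay above female 1 for 10 of 10, with a median of 0.32 against -0.03. In whole tissue RNA, fewer endothelial cells and less of a transcript per cell cannot be told apart. Summed on the linear scale, the 10 markers gave 173.5 in male 1, 281.3 in male 2, 249.9 in female 1 and 332.0 in female 2, so the sums of the sexes overlapped.

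Of the growth factor receptors, Flt1, which binds VEGF-A, VEGF-B and placental growth factor and limits signalling through Kdr, had the second widest spread. It was at 3.83 in male 1, 5.11 in male 2, 5.23 in female 1 and 5.87 in female 2. Both female arrays lay above both male arrays, but male 1 lay 1.28 under the next array (2.43-fold) while the other 3 spanned 0.76. Kdr, the main signalling receptor for VEGF-A, was at 2.58, 3.35, 2.90 and 2.98 in the same order of arrays. It was highest in male 2 and close to or under the receptor level on the other arrays, so its differences are weakly measured. Tek, the angiopoietin receptor also called Tie2, was nearly level, at 3.52, 3.78, 3.67 and 3.70, the narrowest range of the 10 (0.26). Its relative Tie1, an orphan receptor, was at 3.34 in male 1, 3.28 in male 2, 2.78 in female 1 and 3.10 in female 2. Both male arrays of Tie1 lay above both female arrays, by 0.18 at the closest pair. Male 2 minus male 1 was only -0.07 for Tie1, and its female 1 value was close to the receptor level of that array (2.77).

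Of the co-receptor and surface proteins, Emcn had the widest range of the 10, 2.80 on the log2 scale. It was at 2.32 in male 1, 4.70 in male 2, 4.80 in female 1 and 5.12 in female 2. The low value belonged to male 1, where the signal was under the receptor level, so female 2 was at least 4.67-fold higher, counted from that level, and no exact ratio is given. The remaining arrays lay within 0.42 of each other. Eng was at 3.37, 4.75, 4.18 and 5.38, with a range of 2.01. Unlike Emcn, it was also spread within females, where female 2 exceeded female 1 by 1.20. Vwf was at 2.84, 3.13, 3.22 and 3.67, and its female arrays lay above its male arrays by 0.08 at the closest pair.

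The junction genes did not move as 1 block. Cdh5, the adherens junction cadherin restricted to endothelium, was at 5.49 in male 1, 6.52 in male 2, 6.27 in female 1 and 6.49 in female 2. Male 1 lay 0.78 under the next array (1.72-fold), and the other 3 were within 0.25. Pecam1, an adhesion molecule that platelets and leukocytes carry as well, spanned only 0.40, at 5.37, 5.53, 5.45 and 5.77. Cldn5, the claudin of endothelial tight junctions, ran the other way from Cdh5: it was at 4.53 in male 1, 3.79 in male 2, 3.16 in female 1 and 3.42 in female 2. Both of its male arrays lay above both female arrays.

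To describe how the markers varied together, each was centred on its mean over the 4 arrays, and the root mean square distance between centred profiles was taken for the 45 pairs. A correlation was not computed, since 4 arrays are too few. The median distance was 0.58 on the log2 scale. The closest pairs were Pecam1 with Tek (0.12), Pecam1 with Vwf (0.16) and Kdr with Tek (0.19), all of narrow range. Genes of narrow range lie close by this measure in any case, so these pairs say little about varying together. Among genes with a range above 1, Flt1 with Eng (0.27) and Cdh5 with Flt1 (0.40) lay closest. The farthest were Emcn with Cldn5 (1.60), Emcn with Tie1 (1.26) and Flt1 with Cldn5 (1.22). In male 1 the deviation from the gene mean was -1.92 for Emcn, -1.18 for Flt1, -1.05 for Eng and -0.70 for Cdh5, against 0.22 for Tie1 and 0.80 for Cldn5. Of the 10, 5 had a range over arrays above 1 (Emcn, Flt1, Eng, Cldn5 and Cdh5), as did 28.4% of probe sets above the receptor level.

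**Figure D2:**
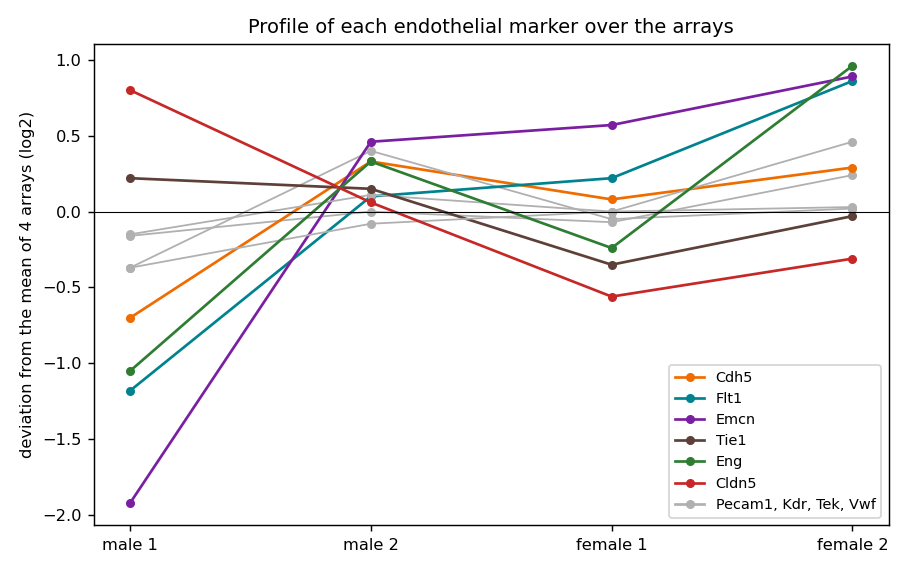
Deviation of each endothelial marker from its own mean over 4 arrays (log2, vertical axis) on each array; a line joins the 4 points of a gene and implies no order. Emcn, Flt1, Eng and Cdh5 dip in male 1, Cldn5 rises there, and the 4 grey genes stay within 0.46 of their means. Tie1 is above its mean by similar amounts in male 1 (0.22) and male 2 (0.15).

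The mean centred profile of the 10 markers was -0.49 in male 1, 0.19 in male 2, -0.04 in female 1 and 0.34 in female 2. Among 3238 genes outside the lists that passed the level and spread minimum of the rule, the 5 nearest to it were Gpnmb, Tada2b, Hyi, Arhgef1 and Sipa1l2, at distances of 0.022 to 0.044. Gpnmb, a transmembrane glycoprotein of macrophages and other cells, was at 3.99, 4.68, 4.46 and 4.88. Of the 3238 genes, 38 lay within 0.1 of the profile, and no expected number was worked out. Likeness over only 4 arrays says little about a shared role. The female minus male differences of these 5 genes were 0.31 to 0.39, each with a limma adjusted p of 0.969 or 0.971.

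The sexes were then compared, the question for which the series was made. Limma called 0 of 10 markers and 0 of all 23521 probe sets (0%) at an adjusted p under 0.05, and the lowest adjusted p of all was 0.772. At an unadjusted p under 0.05 there was 1 marker, Cldn5, against 4.49% of all probe sets. Of the 10 markers, 7 had a higher mean in females and 3 a lower one, where 48.8% of all probe sets were higher in females. The median difference over the markers was 0.27, beside -0.0062 over all probe sets and 0.07 over those above the receptor level. Without male 1 that median was -0.03. The sexes did not overlap for 5 of 10 markers, 3 higher and 2 lower in females, beside 33.3% of all probe sets, of which 15.8% were higher and 17.5% lower. An exact two-sided permutation test of 2 arrays against 2 cannot give a p below 0.33.

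In males Cldn5 averaged 4.16 ± 0.52 (SD, n = 2), and in females 3.29 ± 0.18 (SD, n = 2). Its difference, female minus male, was -0.87 (SE 0.30, 95% interval -1.66 to -0.07), with an adjusted p of 0.969 by limma, and -0.50 without male 1. Tie1 was at 3.31 ± 0.05 (SD, n = 2) and 2.94 ± 0.23 (SD, n = 2), a difference of -0.37 (SE 0.18, adjusted p = 0.969) that was -0.34 without male 1 and -0.21 without female 1. The male mean of Emcn was 3.51 ± 1.68 (SD, n = 2) and the female mean 4.96 ± 0.23 (SD, n = 2). Its difference of 1.45 (SE 0.82, 95% interval -0.75 to 3.65) rested on the male 1 value under the receptor level, and without male 1 it was 0.26. Flt1 was at 4.47 ± 0.91 (SD, n = 2) and 5.55 ± 0.45 (SD, n = 2), a difference of 1.08 (SE 0.50, 95% interval -0.26 to 2.43) that was 0.44 without male 1. Eng differed by 0.72 (SE 0.63, 95% interval -0.98 to 2.42), by 0.03 without male 1 and by 0.12 without female 2. Vwf differed by 0.46 (SE 0.23, 95% interval -0.16 to 1.07) by 0.31 without male 1 and by 0.23 without female 2. For Cdh5 the difference of 0.37 (SE 0.38) became -0.14 without male 1, and for Kdr, at -0.03 (SE 0.30), it became -0.41. Pecam1 and Tek had the narrowest intervals besides Tie1: 0.17 (95% interval -0.32 to 0.66) and 0.04 (95% interval -0.40 to 0.48). The difference of Pecam1 was 0.01 without female 2 and 0.32 without female 1. These intervals, not adjusted for the number of genes, included differences of either sign for every marker but Cldn5.

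**Figure D3:**
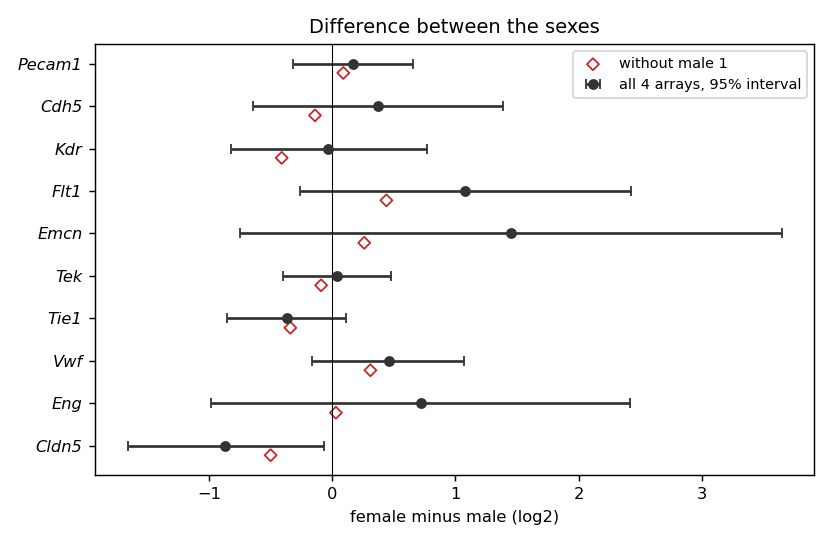
Female minus male difference (log2, horizontal axis) of each endothelial marker: filled points with the 95% interval of limma over all 4 arrays, and open diamonds the difference without male 1. Leaving out male 1 brings Emcn from 1.45 to 0.26 and Flt1 from 1.08 to 0.44, while Tie1 and Cldn5 stay below 0.

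Further endothelial genes were read from lists chosen with earlier results of these data known, so their counts are a description only. None of these genes passed the test either. Across 8 lists of endothelial, ligand and junction genes, limma called 0 of 100 measured genes over the whole table, and 9 had an unadjusted p under 0.05, 6 higher and 3 lower in females, beside 4.49% of all probe sets. Of the 73 with a mean above the receptor level, 34 (46.6%) were lowest in male 1, against 34.0% of all probe sets above that level. Among other surface and secreted endothelial genes, 17 of 24 had a higher mean in females, with a median difference of 0.14, but only 8 of the 22 above the receptor level were lowest in male 1. Mmrn2, a matrix protein of vessel walls, had the widest difference of this list, -0.73 (SE 0.50), at 3.65, 5.02, 3.39 and 3.80 in male 1, male 2, female 1 and female 2, so its sexes overlapped; the difference was -0.05 without male 2 and -1.42 without male 1. Cd93, a surface receptor of endothelium, was at 2.96, 3.01, 3.35 and 3.90, a difference of 0.64 (SE 0.23) that was 0.36 without female 2. It and Cyyr1, at 0.56 (SE 0.20) and at 0.37 without male 1, were the 2 genes of the list with an unadjusted p under 0.05. Cyyr1 has 2 probe sets, and averaged over both it differed by 0.33.

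The ligands of these receptors did not follow them as a group. Of 15 ligands and co-receptors, 9 had a higher and 6 a lower mean in females, with a median of 0.03. Vegfa, the ligand of Kdr and Flt1, was at 6.03, 6.35, 6.43 and 6.01, and Vegfb, a ligand of Flt1, at 6.58, 6.54, 6.77 and 6.24; both had overlapping sexes. Angpt1, the activating ligand of Tek, was at 2.61 in male 1 and between 3.88 and 3.93 on the other arrays. Its signal in male 1 was under the receptor level, as for Emcn, and its difference of 0.66 was 0.02 without male 1. These 3 ligands, Acvrl1, Cyyr1, Pdpn, Erg and Fli1 are named for their roles or for a small count, chosen after their values were seen. Vegfd, a ligand of lymphatic vessels, was at 3.54, 4.27, 5.67 and 3.53, high in female 1 alone (difference 0.69, SE 0.77). Tgfb2, a TGF-beta ligand, was at 5.81 and 5.65 in males and 5.02 and 5.09 in females, a difference of -0.67 (SE 0.15, adjusted p = 0.969) that stayed between -0.75 and -0.60 when each array was left out. Acvrl1, the type I receptor that pairs with Eng, was at 2.81, 3.14, 2.57 and 2.88 and had overlapping sexes. It was under the receptor level in male 1 and female 1, so its differences are weakly measured.

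Transcription factors of endothelium had a median difference of 0.05, with 12 of 19 higher in females, and 6 of the 14 above the receptor level were lowest in male 1. Erg was at 3.51, 3.73, 3.35 and 4.17, and Fli1 at 5.03, 4.64, 5.30 and 5.20, so neither was lowest in male 1. Klf2, a factor induced by blood flow, was at 4.06, 3.81, 4.38 and 4.37, a difference of 0.44 (SE 0.16) with sexes that did not overlap. Foxc1 was at 4.37, 2.80, 3.26 and 5.05, under the receptor level in male 2, and varied mainly within each sex. Of the junction partners, 9 of 11 had a higher female mean, and their median difference was 0.21. Of the 11, 8 had a mean above the receptor level. The catenin genes Ctnna1 and Ctnnb1, which tie cadherins to the cytoskeleton, differed by 0.71 (SE 0.20) and 0.44 (SE 0.19). For both the female arrays lay above the male arrays, as for 15.8% of all probe sets, and neither is particular to endothelium. Jam2 of the same list, named after its values were seen, had the opposite sign, -0.35 (SE 0.17). Its male values (6.06, 6.02) both exceeded its female values (5.56, 5.83).

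Markers of vessel type gave no common direction between the sexes. In male 1 the median deviation was -0.04 for arterial, -0.31 for venous and activated, -0.16 for capillary and -0.01 for lymphatic genes. Of the arterial genes, 5 of 10 had a mean above the receptor level, and the median difference was -0.04. Sema3g was at 3.27 and 3.13 in males and, under the receptor level, 2.75 and 2.73 in females (at least 1.36-fold higher in males). Hey1 differed by -0.26 (SE 0.31). It was under the receptor level in male 1 and female 1, so that difference is weakly measured. Venous and activated endothelium genes had 6 of 7 higher in females and a median of 0.20, and 4 of the 7 had a mean above the receptor level. Ackr1, a chemokine-binding receptor of venules, differed by 0.43 (SE 0.35), and by -0.02 without male 2. Icam1 differed by 0.39 (SE 0.36), and by -0.09 without female 2. Nr2f2, the gene of this list with a lower female mean, was named after its values were seen. It was at 3.47, 4.93, 4.05 and 3.92 (-0.21, SE 0.51). Capillary genes had 5 of 8 higher and a median of 0.16, with Tcf15, a factor of muscle and fat capillaries, at -0.54 (SE 0.24; -0.26 without male 2) and Meox2 at 0.38 (SE 0.35). Of 6 lymphatic genes measured, 3 were above the receptor level: Prox1, Lyve1 and Pdpn, which were also the 3 with an unadjusted p under 0.05. Prox1, the regulator of lymphatic identity that muscle cells express as well, was at 1.92 and 2.29 in males and 3.82 and 3.32 in females (adjusted p = 0.969). Both male values were under the receptor level, so that females were at least 1.62-fold higher, counted from that level. Lyve1, a hyaluronan receptor of lymphatic vessels and of some macrophages, was at 5.60, 6.14, 6.46 and 6.86 (difference 0.79, SE 0.27, and 0.52 without male 1), whereas Pdpn, podoplanin, was at 4.71, 4.69, 4.26 and 4.30 (-0.41, SE 0.14). The other 3, Flt4, Mmrn1 and Reln, lay under the receptor level.

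Other cell types moved with the same arrays, and their part in the endothelial values was not tested. Adipocyte markers had the widest median deviation of the lists in male 1, -0.94, -0.06 in male 2, 0.18 in female 1 and 0.61 in female 2. Of 8 measured, 7 were lowest in male 1, and the summed linear signal of the 8 was 135.4 and 217.4 in males against 309.4 and 375.6 in females. Plin4 and Cidec, lipid droplet genes, differed by 1.59 (SE 0.28) and 1.57 (SE 0.55), the latter 0.78 without male 1. Plin1 of the same list, named after its values were seen, was lowest in female 1. It was at 5.19, 4.96, 4.81 and 5.30, a difference of -0.02 (SE 0.23). Leukocyte and macrophage markers stood out in female 2 instead, the array in which Vwf, Eng, Flt1, Emcn and Pecam1 were highest. Female 2 was also the highest array for 28.1% of all probe sets above the receptor level. The median deviation of these markers there was 0.79 with 11 of 14 highest, and their summed signal was 400.0 and 471.9 in males, 415.0 in female 1 and 878.3 in female 2. The antigen presentation gene H2-Aa was at 2.25 and 2.94 in males, under the receptor level in male 1, and at 2.95 and 6.10 in females; its difference of 1.93 (SE 1.09) was 0.36 without female 2 and 3.50 without female 1. Both male values of H2-Eb1, 2.58 and 2.78, lay under the receptor level, so its female mean of 3.91 is given only as at least 2.04-fold higher, the bound being set at that level, and it too rested on female 2 (3.18 in female 1, 4.63 in female 2). Of the platelet and megakaryocyte markers, a cell lineage that also makes von Willebrand factor, 3 of 7 had a mean above the receptor level, the median deviation in female 2 was 0.15, and the summed signal was 105.0 to 107.9 in males, 108.6 in female 1 and 227.6 in female 2. Without Pf4 the sum of the other 6 was 29.4 to 39.7 on the 4 arrays. Pf4, a platelet chemokine, was at 6.12, 6.24, 6.31 and 7.55, while the defining platelet integrin Itga2b stayed at 2.03 to 2.42, under the receptor level; Treml1 differed by -0.11 (SE 0.15).

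Pericyte and smooth muscle markers, the cells that wrap vessels, had 10 of 12 lower in females, with a median of -0.08. Their median deviation in male 1 was -0.06, and 4 of the 11 above the receptor level were lowest there, close to the 34.0% of all such probe sets. Higd1b and Pdgfrb, pericyte genes, differed by -0.62 (SE 0.21) and -0.54 (SE 0.30), the latter -0.21 without male 2. The Higd1b value of female 2 (2.61) was under the receptor level, so the difference of Higd1b is weakly measured. Mcam of the same list, named after its values were seen, had the opposite sign, 0.49 (SE 0.15). Its female values (3.72, 3.82) both exceeded its male values (3.21, 3.35). Higd1b and Mcam were the 2 genes of this list with an unadjusted p under 0.05 by limma. Skeletal muscle genes had a median deviation of 0.12 in male 1 and -0.29 in female 2. Their summed signal was 17760 to 18370 in males, 18520 in female 1 and 12700 in female 2. Of the 20, 14 had a lower and 6 a higher mean in females, and 4 were lowest in male 1. Mybpc2 and Actn3, genes of fast fibres, differed by -1.96 (SE 0.86) and -1.79 (SE 0.94). These differences were -0.75 and -0.43 without female 2 and -3.17 and -3.16 without female 1. Myh7 and Tnni1, genes of slow fibres named after their values were seen, went the other way. They differed by 1.13 (SE 0.50) and 0.84 (SE 0.43), and both were lowest in male 1. Tendon cell markers had a median deviation of 0.21 in male 1, -0.16 in male 2, -0.30 in female 1 and 0.26 in female 2. Their median difference was -0.02. Of the 11, 5 had a higher and 6 a lower mean in females. Kera and Thbs4 differed by 0.59 (SE 0.21) and 0.51 (SE 0.34), the latter 0.04 without female 2 and 0.97 without female 1. Tnmd and Mkx, picked here after their values were seen, had the opposite sign, -0.43 (SE 0.21) and -0.43 (SE 0.24). The male values of Tnmd (5.06, 4.60) both exceeded its female values (4.42, 4.39). The mean of Mkx lay under the receptor level. Of the 9 erythrocyte names 2 were measured, and 0 had a mean above the receptor level. Limma called 0 of the 174 genes measured in the 15 lists besides the 10 markers, and 17 had an unadjusted p under 0.05, 13 higher and 4 lower in females, beside 4.49% of all probe sets.

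**Figure D4:**
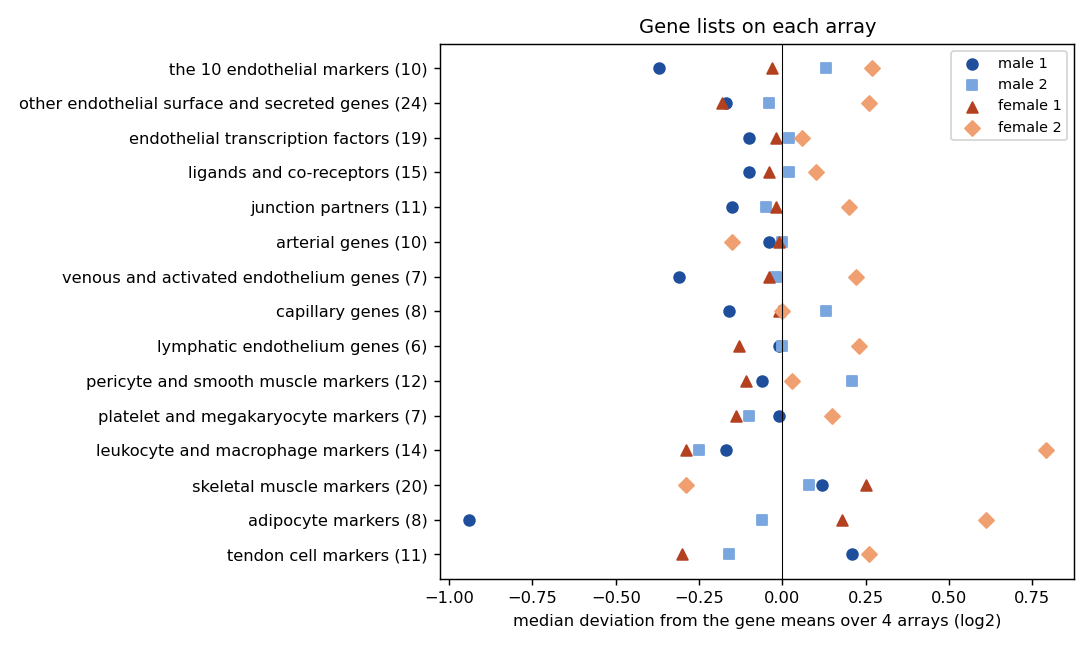
Median over each gene list of the deviation from the gene mean over 4 arrays (log2, horizontal axis), 1 point per array; the number of genes measured is in brackets. In male 1 the 10 endothelial markers sit at -0.37 and adipocyte markers at -0.94, while in female 2 leukocyte and macrophage markers sit at 0.79.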

How the data were processed

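Whole-tendon RNA was amplified with the NuGEN Ovation PicoSL kit from 12.5 ng, and 3.75 ug of cDNA was biotinylated, per the labels' protocols. The authors deposited log2 values, with a column for each array. Per the submitters' processing notes these come from oligo and RMA; the versions, the summary level and the build are not given in the sources used here. That the scale is log2 was inferred from the range and from the use of RMA. RMA equalises the arrays, so a change shared by most transcripts would not be seen. Depth does not apply to arrays; their number limits the precision.

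GEO's platform annotation gave exactly 1 symbol to 23521 of 41345 rows; 23328 were matched by Entrez ID to RefSeq (GRCm38.p6), which changed 0 symbols. Where a gene had more than 1 probe set, the one of highest mean stood for it. Sex was the only term of a linear model fitted to all 23521 probe sets with limma 3.58.1 in R 4.3.3 (lmFit, eBayes), with Benjamini-Hochberg adjustment over the whole table and a threshold of 0.05; the procedure was tested on simulated data. No set test was run. Besides the 10 markers, the text names by rule the 2 genes of widest difference above the receptor level from each of 15 lists, and the 5 genes of nearest profile among those above the receptor level and at least as spread over arrays as the mean profile; others are said to be chosen later. The members and lists were chosen with earlier results of these data known. Alternatives were a threshold of 0.1, the mean over a gene's probe sets, leaving out each array, a block for the replicate number, weights for arrays, centring on array medians, a further quantile normalization, a trend with robust variance in the prior, 2 filters on dim probe sets, and all rows. Plots used matplotlib 3.10.9 (Python 3.11.15).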

Additional observations from a re-analysis of the deposited data

How the results depend on the processing

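The number of arrays limits every statement: 2 per sex, with no technical batch given in the labels. Limma called 0 probe sets and 0 of the 10 markers under all 10 alternatives and without each array, and the lowest adjusted p of a marker over these was 0.69; with all arrays, 1056 probe sets and 1 marker had an unadjusted p under 0.05. The count of markers lowest in male 1 was 7 after quantile normalization once more and 8 under the other alternatives that kept all arrays. With the replicate number as a block, the median difference of the markers was 0.27 and 0 probe sets were called; the deviations of same-numbered arrays correlated at -0.064 across probe sets, so the numbers are not taken as pairs. The median ran from -0.03 (without male 1) to 0.48 when 1 array was left out (the single array then left for that sex is taken to scatter like the other pair). After quantile normalization once more Tek was at -0.07 and Vegfa at -0.04, turned from 0.04 and 0.03. Leaving out an array turned the sign of 14 of the 51 genes followed through the alternatives. Among the markers the range was -0.14 to 0.89 for Cdh5, -0.41 to 0.36 for Kdr and -0.09 to 0.16 for Tek. Among ligands and factors it was -0.38 to 1.76 for Vegfd, -0.18 to 0.24 for Vegfa, -0.32 to 0.21 for Vegfb, -0.27 to 0.55 for Erg and -0.32 to 1.46 for Foxc1. Among the rest it was -0.65 to 0.12 for Hey1, -0.02 to 0.89 for Ackr1, -0.09 to 0.86 for Icam1, -0.08 to 0.84 for Meox2, -0.01 to 0.68 for Gpnmb and -0.06 to 0.68 for Arhgef1. The cause of these turns was not tested. The 7 other markers kept their sign under every alternative run, with ranges without an array of 0.26 to 2.64 for Emcn, 0.44 to 1.72 for Flt1, 0.03 to 1.41 for Eng 0.01 to 0.32 for Pecam1, 0.23 to 0.68 for Vwf, -0.53 to -0.21 for Tie1 and -1.24 to -0.50 for Cldn5.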
